A study of Mus musculus with 12 samples.

Results

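The metabolic miRNA pair miR-103 and miR-107 was examined in 5 mouse cell types. The members were every row of the deposited table named for an arm or a copy of miR-103 or miR-107, which gave 5 of 1042 rows. They were the 3p arms mmu-miR-107-3p and mmu-miR-103-3p and, written like these from here on without the mouse prefix, the 5p arms miR-107-5p, miR-103-1-5p and miR-103-2-5p. The study compared pluripotent cells made in different ways from the same fibroblasts. Small RNA libraries were sequenced from MEFs (mouse embryonic fibroblasts, C57B6/129SvJae F1, 3 libraries), ESCs (the E14 embryonic stem cell line, 129/ola, 3 libraries) and 3 reprogrammed types of 2 libraries each. The reprogrammed types were iPSCs, made from MEFs with the OSKM factors (Oct4, Sox2, Klf4 and c-Myc) carried by doxycycline-inducible lentivirus, NT-ESCs, made by transfer of a MEF nucleus, and NT-iPSCs, made by transfer of an iPSC nucleus. All 3 have the C57B6/129SvJae F1 background of the MEFs, so that in the comparison with ESCs strain and reprogramming cannot be told apart. The pluripotent cells were grown with LIF on irradiated MEF feeders. Each type was 1 cell line, and its libraries were batches of RNA, so that the p-values measure the spread between batches.

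Both miRNAs are processed from hairpins inside introns of the Pank genes, which encode pantothenate kinases, the enzymes that start the synthesis of coenzyme A. The 3p arm is the guide strand that is loaded onto Argonaute, and its seed, bases 2 to 8 from the 5′ end, pairs with target mRNAs. The pair is best known for lowering insulin sensitivity in liver and fat, and for targeting Dicer, the enzyme that cuts miRNA hairpins.

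The mature sequences are shown, with the seed in capitals, because the read values below rest on very few bases. They are those of RefSeq on GRCm38, given 5′ to 3′.
miR-107-3p: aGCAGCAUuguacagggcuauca
miR-103-3p: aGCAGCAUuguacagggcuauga
miR-107-5p: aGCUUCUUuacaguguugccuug
miR-103-1-5p: gGCUUCUUuacagugcugccuug
miR-103-2-5p: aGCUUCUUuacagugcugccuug
Counted from 1 at the 5′ end, miR-107-3p differed from miR-103-3p by G22C alone, with 21 shared bases before it and a length of 23. Both 3p arms had the same seed, and no other row with a sequence carried it. Among the 5p arms, the copies of miR-103 differed from each other by G1A, and miR-107-5p differed from miR-103-2-5p by C16U. A read therefore has to reach base 22 to tell miR-107-3p from miR-103-3p, and how shorter reads were assigned is not given in the sources used here.

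The hairpins are shown with both mature arms in capitals, since the miR-103-3p row sums the product of 2 loci and only the 5p arms separate them.
Mir107: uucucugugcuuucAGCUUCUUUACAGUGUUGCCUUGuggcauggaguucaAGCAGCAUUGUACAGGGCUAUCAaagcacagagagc
Mir103-1: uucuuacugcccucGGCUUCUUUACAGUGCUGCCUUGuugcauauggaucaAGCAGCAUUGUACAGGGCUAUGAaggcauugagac
Mir103-2: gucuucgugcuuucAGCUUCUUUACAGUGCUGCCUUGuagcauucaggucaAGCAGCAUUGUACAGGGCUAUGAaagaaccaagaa
In GENCODE M21 (GRCm38), Mir107 lies at chr19:34820687-34820773 on the minus strand, in intron 5 of 6 of Pank1. Mir103-1 lies at chr11:35782396-35782481 on the plus strand, in intron 5 of 6 of Pank3. Mir103-2 lies at chr2:131288052-131288137 on the plus strand, in intron 5 of 6 of Pank2. No exon of a host transcript overlapped a hairpin. The hairpins were 80.5% identical between Mir107 and Mir103-1, 83.9% between Mir107 and Mir103-2, and 80.2% between Mir103-1 and Mir103-2.

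The miR-15/16 family carries a related seed, shifted by 1 base, and is shown for that reason. In the following, the seed in capitals equals bases 1 to 7 of miR-103-3p.
miR-15a-5p: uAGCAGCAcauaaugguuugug
miR-15b-5p: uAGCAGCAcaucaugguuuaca
miR-16-5p: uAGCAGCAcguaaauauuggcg
miR-322-5p: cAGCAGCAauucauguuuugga

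The libraries held between 4863365 and 8608689 miRNA reads. MEF libraries had at least 7867514, ESC libraries at most 5771398, and reprogrammed libraries between 5293867 and 7567263. A miRNA seen with 3 reads thus stands at 0.349 to 0.617 CPM (reads scaled to a common total of miRNA reads). The size factors by which the authors divided the reads ran from 0.762 to 0.819 for MEFs, from 0.887 to 0.999 for ESCs and from 1.14 to 1.44 for reprogrammed cells, and their part in the differences below was not tested. The cell type labels were checked on miRNA markers. All 13 pluripotency markers (the miR-290 and miR-302 families) had over 3 reads in every pluripotent library, with a summed CPM of 98830 to 197000, against 0.869 to 12.4 in MEFs, where miR-290-3p, miR-302a-3p, miR-302d-3p and miR-367-3p were at 0. The 10 fibroblast markers, which feeder cells also carry, were found in every library, with a summed CPM of 70500 to 101200 in MEFs. Among pluripotent cells the sum was 42310 to 46640 for ESCs, 15030 to 16640 for iPSCs, 34510 to 35500 for NT-ESCs and 35370 to 40990 for NT-iPSCs. The 4 muscle markers found in the table reached 106600 to 127000 in MEFs and 489 to 2521 in the pluripotent cells.

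miR-107-3p was a minor miRNA in MEFs and ESCs and one of the most abundant in each reprogrammed type. In reads divided by the size factor, it stood at 614, 433 and 532 in MEF replicates 13, 14 and 15. In ESC replicates 2, 3 and 4 it stood at 380, 440 and 515. The libraries of these 2 types overlapped. In iPSC replicates 62 and 63 miR-107-3p stood at 26395 and 39158, in NT-ESC replicates 71 and 72 at 24029 and 25340, and in NT-iPSC replicates 51 and 52 at 24115 and 28652. All 6 reprogrammed libraries lay far above all 6 others, with no overlap. In such bulk libraries, more cells with a miRNA and more of it per cell cannot be told apart. Of all 732 miRNAs tested, 36.6% were higher in every reprogrammed library than in every ESC library, and 44.7% than in every MEF library. By rank within the library, miR-107-3p was between places 212 and 231 in MEFs, between 265 and 288 in ESCs and between 31 and 42 in reprogrammed cells. In the 3 MEF libraries its CPM of 45.1 to 54.4 was below that of every reprogrammed library. The part of feeder cells in the level of miR-107-3p was not tested.

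**Figure D1:**
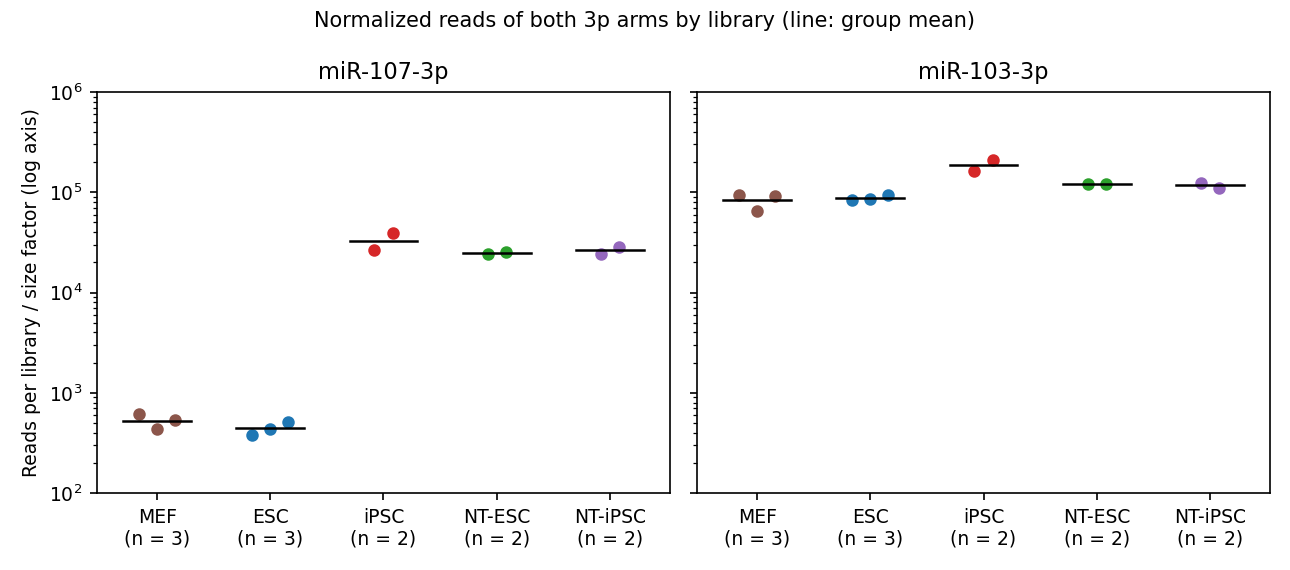
Reads of miR-107-3p (left) and miR-103-3p (right) divided by the size factor, on a log axis, in each library of the 5 cell types. Points are libraries and lines are group means. miR-107-3p lies between 380 and 614 in MEFs and ESCs and between 24029 and 39158 in the reprogrammed cells, while miR-103-3p lies between 65322 and 208438 throughout.

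On the deposited log2 scale, MEFs had a mean miR-107-3p of 11.14 ± 0.25 and ESCs one of 10.90 ± 0.22 (SD, n = 3 for either). The means of iPSCs, NT-ESCs and NT-iPSCs were 17.08 ± 0.40, 16.70 ± 0.05 and 16.79 ± 0.18 (SD, n = 2 for each). In descending order of means the types were thus iPSCs, NT-iPSCs, NT-ESCs, MEFs and ESCs. The order of NT-iPSCs and NT-ESCs and that of MEFs and ESCs turned in log2 CPM. The mean over the reprogrammed types exceeded ESCs by 5.96 (standard error 0.16, adjusted p = 6.4e-11, limma), or 62.8-fold in normalized reads. In this comparison 82% of all 732 miRNAs passed the threshold of 0.05, 44% higher and 38% lower in reprogrammed cells, and the median difference of all was 0.24. Among the 732, miR-107-3p took place 20 when ordered from the highest rise and place 33 by size in either direction. It exceeded MEFs by 5.72 (adjusted p = 2.72e-11, limma), or 53.1-fold, in a comparison in which 88.9% of all miRNAs passed, 48.5% higher and 40.4% lower, and the median was 0.40. There it took places 79 and 118 in these orders. Its size over MEFs moved with the scaling, from 5.30 with upper quartile scaling to 6.70 in log2 CPM, where the fold was 110, and it was called under each. Since MEFs share the strain of the reprogrammed cells, this difference was found within 1 strain. In the paper's sequencing statistics, every reprogrammed library had more total reads and a higher share of adaptor contaminants than every MEF and ESC library. A difference in library preparation or sequencing thus cannot be told apart from reprogramming, here or against ESCs. It was not tested.

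Each reprogrammed type showed the rise on its own. Against ESCs, miR-107-3p was 73.7-fold higher in iPSCs, with a difference of 6.18 (adjusted p = 6.22e-10, limma; 75.8% of all miRNAs called). It was 55.5-fold higher in NT-ESCs, with a difference of 5.80 (adjusted p = 1.14e-09, limma; 75.8% called), and 59.3-fold higher in NT-iPSCs, with a difference of 5.89 (adjusted p = 1.08e-09, limma; 77.6% called). These comparisons share the ESC libraries. On the deposited scale, no test was passed among the reprogrammed types, or between MEFs and ESCs. The difference was -0.38 between NT-ESCs and iPSCs (adjusted p = 0.261), -0.29 between NT-iPSCs and iPSCs (adjusted p = 0.401), 0.09 between NT-iPSCs and NT-ESCs (adjusted p = 0.857) and 0.24 between MEFs and ESCs (95% interval -0.18 to 0.65, adjusted p = 0.262), all by limma. Of all miRNAs, 25.7%, 26.5%, 12.8% and 79% passed in these 4 comparisons, in the same order, those between MEFs and ESCs being 39.1% higher and 39.9% lower in MEFs. The differences from iPSCs depended on the iPSC library. Without iPSC replicate 62 they were -0.67 for NT-ESCs and -0.575 for NT-iPSCs. Without iPSC replicate 63 they were -0.097 and -0.006. The direction between MEFs and ESCs turned with the scaling, so that their order is not settled. It was 0.88 with upper quartile scaling (adjusted p = 5.86e-04) and -0.64 in log2 CPM (adjusted p = 0.0025), both called by limma.

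miR-103-3p was abundant in every cell type and moved far less. Its normalized reads were 94881, 65322 and 91292 in the MEF libraries, in the order of replicates given above, and 83511, 86386 and 94745 in the ESC libraries. The ESC values lay within the range of the MEF values. The iPSC libraries held 162488 and 208438, the NT-ESC libraries 121210 and 122339, and the NT-iPSC libraries 124679 and 109130. Every reprogrammed library was above every MEF and ESC library, and the iPSC libraries were above all others. No overlap in that direction was found for 37.6% of all miRNAs between NT-ESCs and iPSCs and for 32.4% between NT-iPSCs and iPSCs. By rank, miR-103-3p took places 16 to 25 among MEFs, 13 to 16 among ESCs, 12 to 15 in the nuclear transfer lines, and at place 5 in both iPSC libraries.

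On the log2 scale, MEFs had a mean miR-103-3p of 18.45 ± 0.30 and ESCs one of 18.54 ± 0.09 (SD, n = 3 for either). The means of iPSCs, NT-ESCs and NT-iPSCs were 19.60 ± 0.25, 19.004 ± 0.009 and 18.94 ± 0.14 (SD, n = 2 for each). The order of means was thus iPSCs, NT-ESCs, NT-iPSCs, ESCs and MEFs. That of NT-ESCs and NT-iPSCs turned without NT-iPSC replicate 52, and that of ESCs and MEFs with upper quartile scaling. The reprogrammed mean exceeded ESCs by 0.65 (standard error 0.15, adjusted p = 0.00155, limma), or 1.6-fold, and MEFs by 0.74 (adjusted p = 5.33e-04, limma), or 1.69-fold. Both differences stayed above the median of all miRNAs in their comparison, 0.24 and 0.40. The size over MEFs depended on the scaling. It was 0.31 with upper quartile scaling (adjusted p = 0.0456), 1.08 with TMM-type scaling and 1.74 in log2 CPM, or 3.57-fold in CPM, and it was called by limma under each. By type, the rise over ESCs was 1.06 in iPSCs (adjusted p = 3.15e-04, limma), or 2.1-fold. It was 0.47 in NT-ESCs (adjusted p = 0.0404, limma), a call that was lost when NT-ESC replicate 71 (0.47, adjusted p = 0.12) or replicate 72 (0.46, adjusted p = 0.13), ESC replicate 2 (0.43, adjusted p = 0.0939) or 3 (0.45, adjusted p = 0.0809), or MEF replicate 15 (0.47, adjusted p = 0.0544) was left out. The difference of 0.41 in NT-iPSCs did not pass (adjusted p = 0.067, limma).

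Between the reprogrammed types, miR-103-3p was lower in NT-iPSCs than in the iPSCs from which they were made (difference -0.66, standard error 0.21, adjusted p = 0.0356, limma), 0.63 times the iPSC level. This call was lost in 6 of 12 fits that left out 1 library: without iPSC replicate 63 (-0.48, adjusted p = 0.217), NT-iPSC replicate 51 (-0.75, adjusted p = 0.0677) or 52 (-0.56, adjusted p = 0.165), or, at the same -0.66, without MEF replicate 15 (adjusted p = 0.0513) or NT-ESC replicate 71 (adjusted p = 0.0558) or 72 (adjusted p = 0.0559). It was also lost in 3 of 7 other settings (adjusted p from 0.0507 to 0.131). Between NT-ESCs and iPSCs the difference was -0.60 (adjusted p = 0.0533, limma), and between NT-iPSCs and NT-ESCs it was -0.06 (adjusted p = 0.897, limma). The summed fibroblast markers were also higher in NT-ESCs and NT-iPSCs than in iPSCs, and their part in this difference was not tested. Between MEFs and ESCs, miR-103-3p differed by -0.09 on the deposited scale (adjusted p = 0.631, limma). In CPM, with no correction for composition, the same difference was -0.98 (adjusted p = 1.35e-05, limma), and with the upper quartile of the reads as scaling it turned to 0.55 (adjusted p = 0.00727, limma). These scalings moved the median of all miRNAs by -0.53 and 0.55 respectively.

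**Figure D2:**
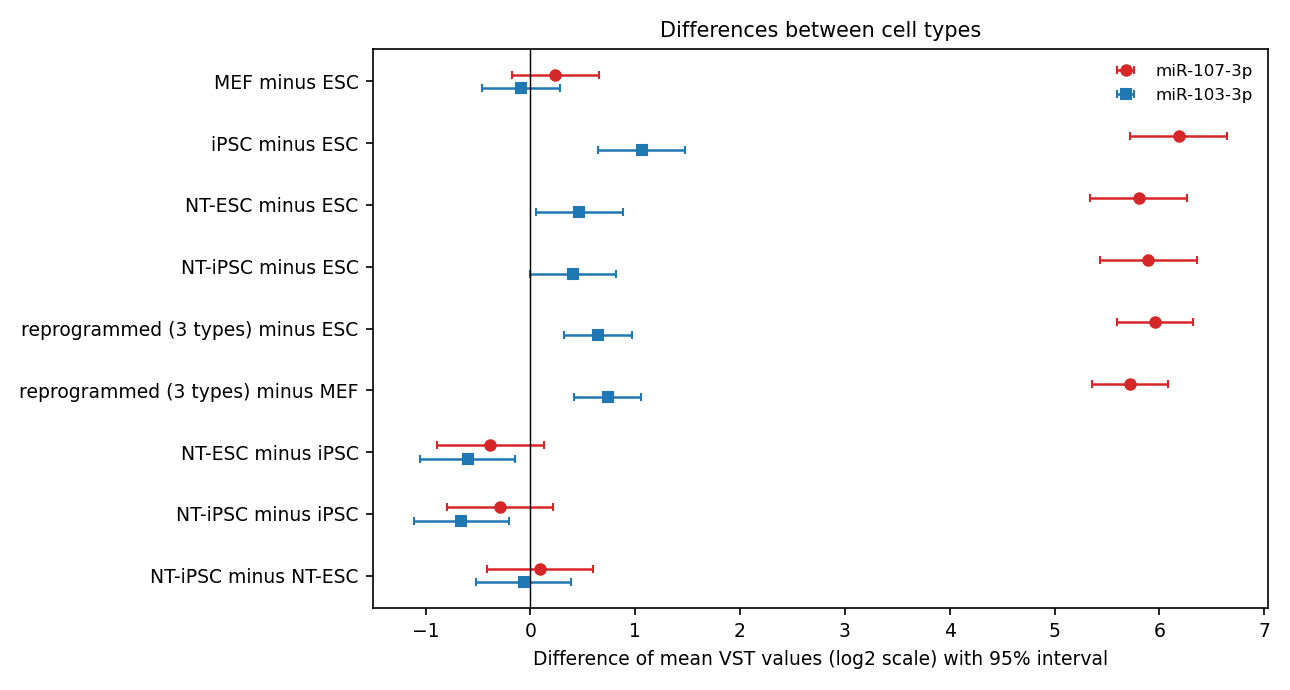
Differences of mean log2 values between cell types for miR-107-3p (circles) and miR-103-3p (squares), with 95% intervals from the limma model. The miR-107-3p difference from ESCs is close to 6 in each reprogrammed type and that of miR-103-3p between 0.41 and 1.06.

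The balance within the pair was then taken from the reads of each library, a ratio in which the size factor cancels. miR-107-3p made up 0.643%, 0.659% and 0.579% of the reads of both 3p arms in the MEF libraries and 0.453%, 0.507% and 0.54% in the ESC libraries. In the iPSC libraries it made up 13.97% and 15.8%, in the NT-ESC libraries 16.5% and 17.2%, and in the NT-iPSC libraries 16.2% and 20.8%. The lowest ESC share had a 95% Wilson interval of 0.407% to 0.504% and the highest NT-iPSC share one of 20.6% to 21%, which cover counting error only. There were between 151 and 172 reads of miR-103-3p for each read of miR-107-3p in MEFs, between 184 and 220 in ESCs and between 3.81 and 6.16 in the reprogrammed cells.

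The log2 ratio of miR-107-3p to miR-103-3p averaged -7.31 ± 0.10 for MEFs and -7.64 ± 0.13 for ESCs (SD, n = 3 for either), and it was -2.32 ± 0.23 over the 6 reprogrammed libraries (SD, n = 6). The reprogrammed libraries exceeded ESCs by 5.32, a 39.9-fold shift, and MEFs by 4.99, a 31.7-fold shift, with no overlap in either comparison. Both gave an exact two-sided permutation p of 0.0238, the smallest that 84 arrangements allow with the smaller tail doubled. After Benjamini-Hochberg adjustment over 6 tests it was 0.0357. The test exchanges libraries, which are RNA batches of a few lines, so that these p-values do not measure the spread between lines. The MEF libraries all lay above the ESC libraries, by 0.33 or 1.26-fold (exact permutation p = 0.1, the smallest that 3 against 3 allows).

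The sum of both 3p arms rose as well. The sum does not depend on which of the rows a read was given to, if each read was counted in a single row. Whether reads that match both rows were counted in each is not given in the sources used here. Of all miRNA reads, the pair made up 0.685% to 0.905% in MEFs and 1.5% to 1.75% in ESCs. Its share was 4.86% to 5.55% for iPSCs, 2.71% to 2.77% for NT-ESCs and 2.29% to 2.43% for NT-iPSCs. The iPSC libraries stood highest, and no reprogrammed library reached down to the ESC range. In log2 CPM the sum was 1.02 higher in reprogrammed cells than in ESCs (2.03-fold, exact permutation p = 0.0238) and 2.0 higher than in MEFs (4-fold, exact permutation p = 0.0238). With the deposited size factors in place of CPM these differences were 0.90 and 0.99. The MEF libraries were below the ESC libraries by 0.98 in CPM (exact permutation p = 0.1), a difference that shrank to -0.09 with the deposited size factors.

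**Figure D3:**
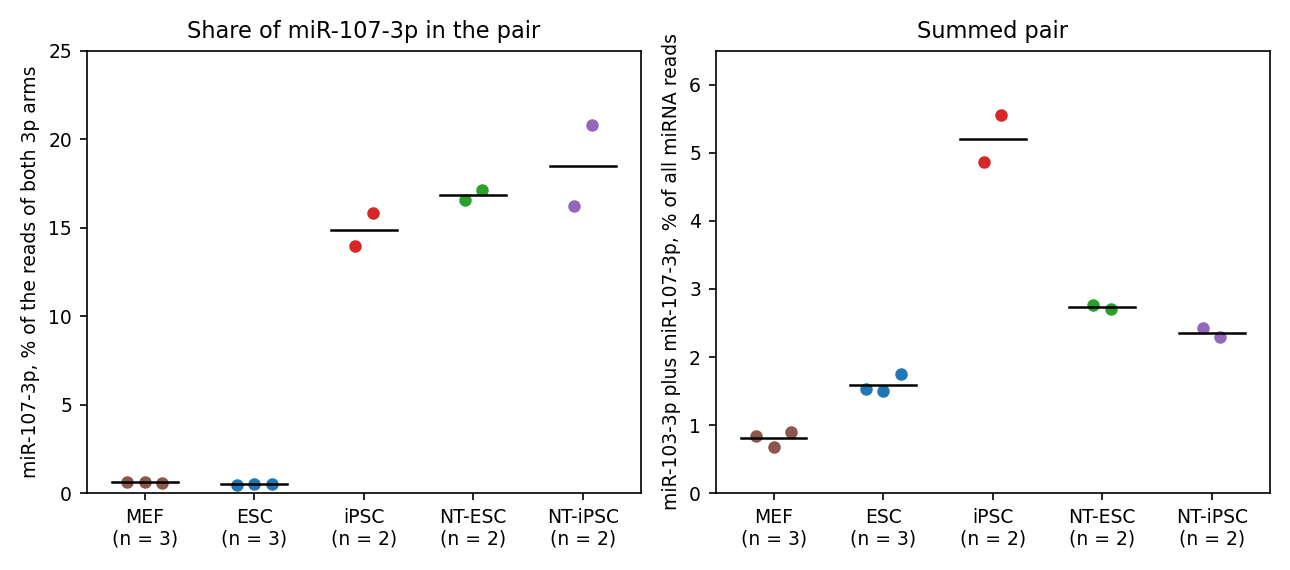
Share of miR-107-3p in the reads of both 3p arms (left) and share of the summed pair in all miRNA reads (right), in percent, by library. Points are libraries and lines are group means. The share of miR-107-3p is under 1% in all 6 MEF and ESC libraries and between 13.97% and 20.8% in the 6 reprogrammed libraries, and the summed pair is highest in iPSCs.

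The 5p arms, the passenger strands of the hairpins, were close to the limit of detection. miR-103-2-5p, from the copy in Pank2, had 3, 1 and 3 reads in the MEF libraries, 0, 2 and 0 in the ESC libraries, and 12 and 17, 15 and 6, and 11 and 6 in the libraries of iPSCs, NT-ESCs and NT-iPSCs. All 6 reprogrammed libraries were above every other, as was the case for 36.6% of all 732 miRNAs tested against ESCs and 44.7% against MEFs. It passed the filter of 10 reads in 2 libraries through the reprogrammed libraries alone, so a difference from the other types was favoured by the filter. Its limma calls are given only with the dependence on the processing and support nothing. The size of the difference from ESCs on a log2 scale depended on how values near 0 are treated. It was 3.68 in deposited values and 1.25 in log2 CPM with a pseudocount of 1, and leaving out 1 ESC library moved the first to 3.19 (ESC replicate 2 or 4) or 4.65 (ESC replicate 3). Summed over libraries, 67 reads in the reprogrammed cells stood beside 2 in ESCs, a CPM ratio of 13.1, and beside 7 in MEFs, a ratio of 5.88. These ratios come from the values that the filter used, and they support no difference either. Between MEFs and ESCs, with at most 3 reads in each of these libraries and overlapping reads, no fold is given.

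miR-103-1-5p, from the copy in Pank3, had at most 2 reads in any library, and miR-107-5p at most 1, so neither was tested. Differences between cell types were not detectable for them at this depth. The 5p arm of miR-107 showed no rise in reads beside its 3p arm. In MEFs and ESCs together, 3 reads of miR-107-5p stood beside 2497 of miR-107-3p, or 120 in 100000 reads of the hairpin (exact 95% interval 24.8 to 350). In the reprogrammed cells, 2 reads stood beside 217175, or 0.921 in 100000 (exact interval 0.112 to 3.33). For miR-103, the 5p arms of both copies gave 12 reads beside 446111 in MEFs and ESCs, or 2.69 in 100000 (exact interval 1.39 to 4.7), and 74 beside 1105052 in the reprogrammed cells, or 6.7 in 100000 (exact interval 5.26 to 8.41). In summed reads the share of the 5p arm was thus lower in the reprogrammed cells for miR-107 and higher for miR-103. For miR-107 this rests on 3 and 2 reads of the 5p arm beside the rise of the 3p arm. For miR-103, 67 of the 74 reads were of miR-103-2-5p, which passed the filter through the reprogrammed libraries alone. The intervals pool libraries and cover counting error only, so their overlap decides nothing. In MEFs alone the shares were 4.54 in 100000 (2.08 to 8.62) for miR-103 and 80.3 (2.03 to 446) for miR-107. In ESCs alone they were 1.21 (0.25 to 3.54) for miR-103 and 159 (19.3 to 575) for miR-107. By library the shares overlapped, and they were not tested. For 100000 reads of the 3p arm, there were 0 to 237 reads of miR-107-5p per library in MEFs and ESCs and 0 to 2.88 in reprogrammed cells. For the 5p arms of miR-103 these ranges were 0 to 5.61 and 4.55 to 9.14.

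The shift within the pair was set beside those of other miRNAs that are nearly the same in sequence. Mature sequences of the same name were found for 549 of the 732 miRNAs tested, and among these 18 pairs, the pair of miR-103-3p and miR-107-3p included, had mature sequences that differ at 1 base or by 1 end base. With 1 read added to every value, the log2 ratio within a pair moved between ESCs and reprogrammed cells by a median of 1.59 in size, and in 14 of the 18 pairs the libraries did not overlap. miR-103-3p and miR-107-3p, at 5.31, had the highest shift of the 18 in this comparison. The next were miR-19a-3p and miR-19b-3p, members of the miR-17-92 clusters that differ by U11C, at 3.58. miR-100-5p and miR-99a-5p, which differ by A16U, followed at 3.49. In both of these pairs the ratio moved toward the miRNA named second. Of the 18 shifts, 10 were at least 1 and 7 at least 2, and the lowest was 0.22, between let-7b-5p and let-7c-5p. Only 2 of the 18 pairs differ at a base followed by at most 2 bases. Besides miR-103-3p and miR-107-3p this was miR-27a-3p and miR-27b-3p, at 0.559. Against MEFs the ratio of miR-103-3p to miR-107-3p moved by -4.98. There miR-106a-5p and miR-17-5p (7.47) moved more, as did miR-204-5p and miR-211-5p (-5.53), a pair with 0 reads in some library. These values are a description of the 18 pairs, with no test.

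**Figure D4:**
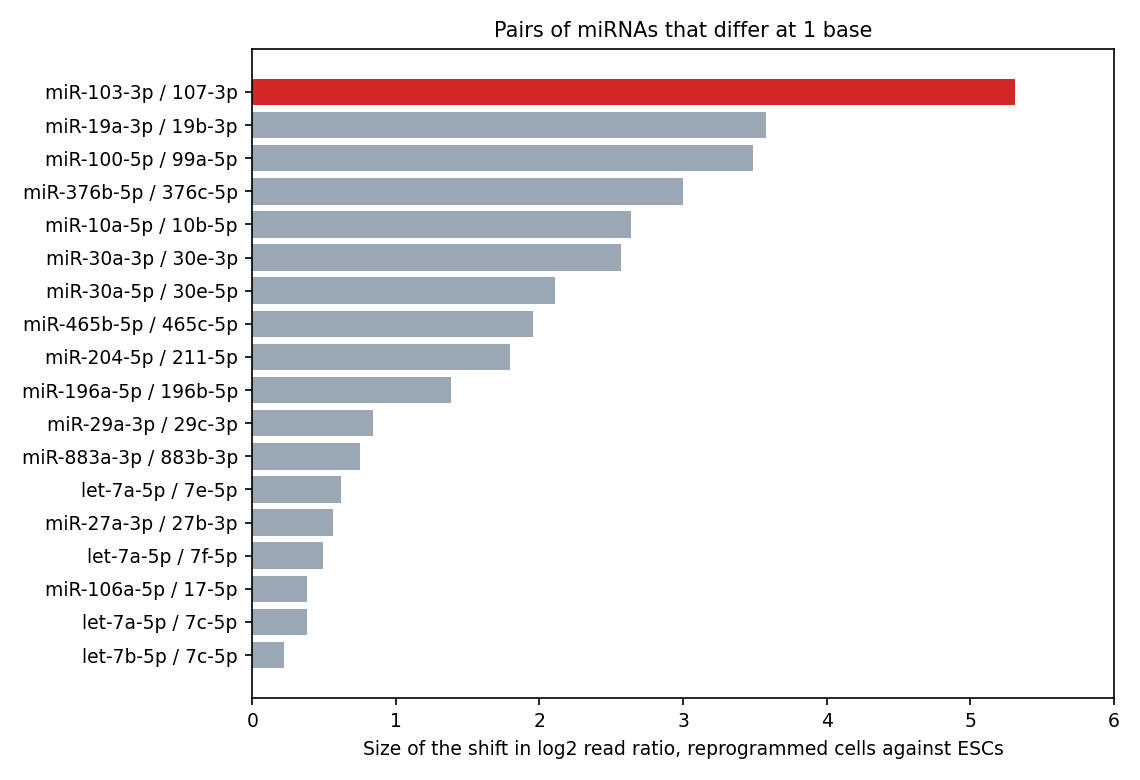
Size of the change in log2 read ratio between ESCs and the reprogrammed cells for 18 pairs of miRNAs that differ at 1 base or by 1 end base. Bars are the difference of mean log2 ratios with 1 read added, and that of miR-103-3p and miR-107-3p (red) is 5.31, against 3.58 for the next pair and 0.22 for the last. Against MEFs, not shown, other pairs moved more than this one.

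The miRNAs whose level followed the pair most closely were named by Pearson's r over the 12 libraries, on the log2 scale, among 731 other miRNAs. Because the libraries fall into high and low groups and share their scaling, r is only a measure of likeness here. For miR-107-3p the first 5 were miR-29c-3p (0.995), miR-495-3p (0.995), miR-665-3p (0.994), miR-433-3p (0.992) and miR-376a-3p (0.99). miR-29c-3p, of the miR-29 family that targets collagen mRNAs, had means of 6.96 in MEFs and 6.83 in ESCs, and of 12.46, 12.36 and 12.91 in the reprogrammed types, in the order given above. The other 4 are miRNAs of the imprinted Dlk1-Dio3 region, and their difference between reprogrammed cells and ESCs ran from 3.95 for miR-376a-3p to 5.96 for miR-495-3p. miR-103-3p took only place 154 for likeness to miR-107-3p, with r = 0.828. Its own first 5 were miR-33-5p (0.896), miR-298-5p (0.879), miR-449a-5p (0.878), miR-467b-3p (0.877) and miR-1950 (0.866), with miR-107-3p at place 32. Like miR-103-3p, all 5 had their highest mean in iPSCs, and miR-33-5p, which is encoded in an intron of Srebf2, had means of 13.94 in iPSCs, 13.32 after transfer of a MEF nucleus and 12.98 after transfer of an iPSC nucleus, the same order as miR-103-3p. miR-467b-3p had this order too, whereas miR-298-5p (14.69 and 15.29), miR-449a-5p (9.32 and 10.43) and miR-1950 (5.78 and 5.80) had the lower mean in NT-ESCs and the higher in NT-iPSCs. These are orders of means only. Between NT-iPSCs and NT-ESCs neither miR-33-5p (-0.338, adjusted p = 0.38, limma) nor miR-103-3p (-0.062, adjusted p = 0.897, limma) passed.

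The miR-15/16 family, some of whose 5p arms carry the seed shifted by 1 base against that of the pair, was taken with both arms of each hairpin. The 5p arms differed among themselves in direction. Of 16 arms listed, 15 were tested, and between reprogrammed cells and ESCs 5 were higher, 7 lower and 3 did not pass, where 44% of all miRNAs were higher and 38% lower. Their median difference was -0.18, against 0.24 for all miRNAs tested. Of the 4 arms shown above, miR-322-5p fell most, with a difference of -3.30 (adjusted p = 2.62e-09), followed by miR-15a-5p at -1.61 (adjusted p = 4.39e-06), miR-16-5p at -1.201 (adjusted p = 3.96e-05) and miR-15b-5p at -0.305 (adjusted p = 0.0378), all by limma. The other 5p arms of the family did not fall. RefSeq lists miR-497-5p and miR-195-5p under the names miR-497a-5p and miR-195a-5p, with the same seed as the 4 arms shown, while miR-503-5p has another seed. miR-497-5p was higher by 1.54 (adjusted p = 1.69e-04, limma) and miR-503-5p by 1.48 (adjusted p = 8.47e-07, limma), and the difference of miR-195-5p was 0.005 (adjusted p = 0.986, limma). The highest differences of the family were those of miR-15a-3p, at 2.98, and miR-322-3p, at 2.44. In reprogrammed cells miR-322-3p had the higher deposited value of the arms of its hairpin, 13.61 against 10.52 for miR-322-5p. The lowest were those of miR-503-3p, at -4.43, and miR-195-3p, at -4.23. Between MEFs and ESCs, 4 of the 15 were higher and 7 lower in MEFs, against 39.1% and 39.9% of all miRNAs. Between reprogrammed cells and MEFs, 5 were higher and 3 lower, against 48.5% and 40.4% of all. The fall of miR-16-5p was found against ESCs, while its difference from MEFs, -0.26, did not pass (adjusted p = 0.161, limma). That of miR-15b-5p was 0.999 (adjusted p = 1.05e-05, limma).

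**Figure D5:**
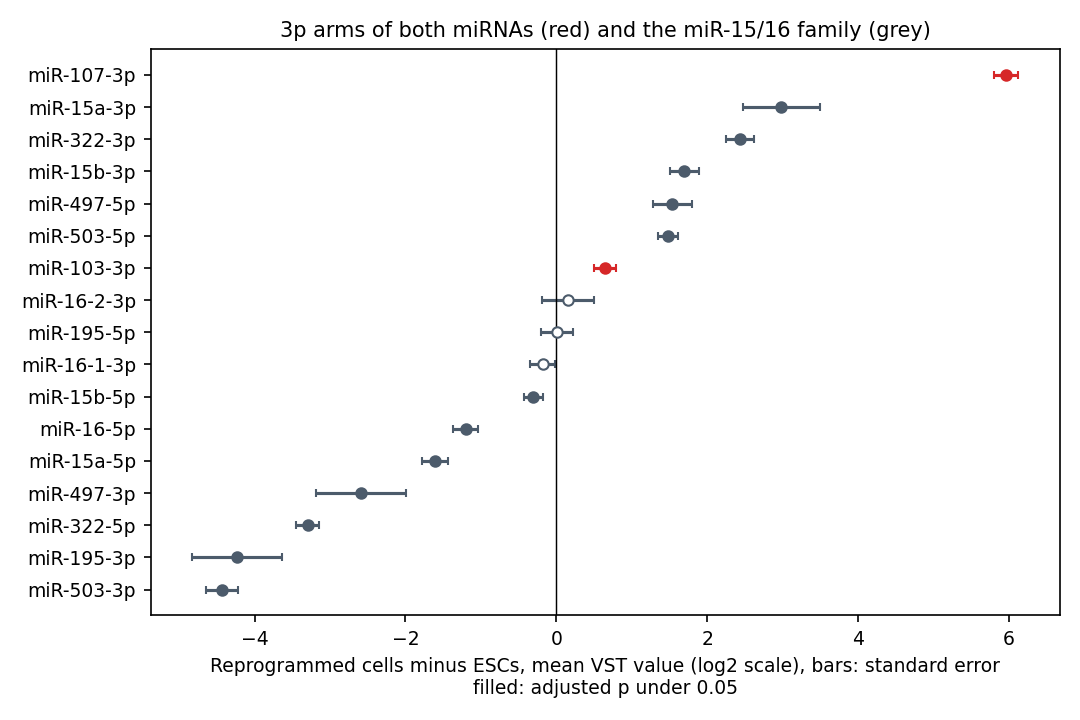
Difference of the mean log2 value between reprogrammed cells and ESCs for miR-103-3p and miR-107-3p (red) and the 15 tested arms of the miR-15/16 family (grey), with standard errors. Filled points passed an adjusted p of 0.05 in limma. The family spreads from -4.43 to 2.98 on both sides of 0, and miR-107-3p stands above every arm of it at 5.96.

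Other miRNAs known from lipid and glucose metabolism were called in both directions. Of 15 listed, 12 were tested, and between reprogrammed cells and ESCs 3 were higher, 8 lower and 1, miR-34a-5p, did not pass, where 44% of all miRNAs were higher and 38% lower. Their median difference was -1.86, against 0.24 for all. The 3 that were higher were miR-375-3p of the pancreatic islet (3.27), miR-33-5p (2.54) and miR-122-5p of the liver (2.17). Like the pair, miR-33-5p and both arms of miR-378 are made from introns of metabolic genes, Srebf2 and Ppargc1b. miR-33-5p rose with the pair (adjusted p = 6.66e-08, limma), whereas miR-378-3p changed by -3.87 (adjusted p = 3.54e-10, limma) and miR-378-5p by -2.05 (adjusted p = 1.4e-04, limma). Against MEFs, 4 of the 12 were higher and 8 lower, where 88.9% of all miRNAs were called, 48.5% higher and 40.4% lower. The pair itself is not in this list.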

How the data were processed

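The authors sequenced small RNA libraries, cleaned and annotated the reads and counted miRNAs. The authors deposited log2 values from the variance stabilizing transformation of DESeq. The labels name the build mm8. The miRBase release is not given in the sources used here. No coordinate of mm8 is used. The transformation was inverted to reads, which came out whole within 0.05 read for 100% of the nonzero values. Of 1042 miRNAs, 937 had a read and 732 had at least 10 reads in 2 libraries. These were fitted as deposited with limma (version 3.58.1 under R 4.3.3), using 5 group means, a trended moderation and Benjamini-Hochberg adjustment. Of the 5 rows of the pair, 3 were tested. The script was tested on simulated data. Pair ratios and sums were compared by exact two-sided permutation tests over libraries. Replicates differed by more than counting noise (chi-square per degree of freedom 47.4 to 362). The 5 most similar miRNAs, the arms of miR-15/16 with the highest and lowest differences and the 3 pairs with the highest shift were named by rule. Alternatives were other scalings, log2 CPM with a pseudocount of 1, voom, other filters, fits of the compared groups alone and leaving out each library. Members and lists were chosen with earlier results of these data known. Other tools were scipy 1.17.1, numpy 2.4.6, pandas 2.3.3, Biopython 1.88 and matplotlib 3.10.9 under Python 3.11.15.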

Additional observations from a re-analysis of the deposited data

Results flagged for a closer look

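miR-103-3p was lower in NT-iPSCs than in iPSCs, the cells they were made from (difference -0.66 on the log2 scale, adjusted p = 0.0356, limma). Against ESCs, the difference of iPSCs passed the test (1.06) and that of NT-iPSCs did not (0.41, adjusted p = 0.067, limma). Both NT-iPSC libraries lay below both iPSC libraries. The size was -1.20 in log2 CPM and -0.58 with upper quartile scaling, and it kept its sign in every alternative run. Leaving out iPSC replicate 63, NT-iPSC replicate 51 or 52, MEF replicate 15, or NT-ESC replicate 71 or 72 ended the call, as did TMM-type scaling (adjusted p = 0.0536), no filter (adjusted p = 0.0507) and a fit of the compared groups alone (adjusted p = 0.131) by limma. Over all libraries left out, the difference ran from -0.84 to -0.48.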

How the results depend on the processing

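For miR-107-3p, all 5 comparisons of reprogrammed cells with ESCs or MEFs kept their direction and call in every alternative. No paired analysis was possible because no 2 groups have a replicate number in common. Causes of the changes below were not tested. With TMM-type scaling, miR-107-3p between MEFs and ESCs became -0.25 and miR-103-3p -0.58 (called), miR-103-3p lost its call between NT-iPSCs and iPSCs (-0.70) and between NT-ESCs and ESCs (0.35), and miR-103-2-5p was called between reprogrammed cells and MEFs (1.65). With upper quartile scaling, miR-107-3p (0.88) and miR-103-3p (0.55) were called between MEFs and ESCs, and miR-103-3p between NT-iPSCs and ESCs (0.65). In log2 CPM, between MEFs and ESCs miR-107-3p was -0.64 and miR-103-3p -0.98, both called, and miR-103-2-5p 0.21, not called. In log2 CPM calls were gained by miR-107-3p in NT-ESCs (-0.74) and NT-iPSCs (-0.83) against iPSCs, by miR-103-3p in NT-ESCs against iPSCs (-0.96), and by miR-103-2-5p in NT-iPSCs against iPSCs (-0.73) and reprogrammed cells against MEFs (1.04), and miR-107-3p between NT-iPSCs and NT-ESCs was -0.092. The share of miRNAs called in log2 CPM was 48.6% between NT-iPSCs and iPSCs, 43% between NT-ESCs and iPSCs and 21.4% between NT-iPSCs and NT-ESCs, in place of 26.5%, 25.7% and 12.8%. With voom, 23.5% were called between NT-iPSCs and NT-ESCs, and calls were gained by miR-103-2-5p against MEFs (1.36) and by miR-103-3p in NT-iPSCs against ESCs (0.41) and NT-ESCs against iPSCs (-0.60). In fits of the compared groups alone, 14.6% were called between NT-iPSCs and iPSCs and 6.42% between NT-iPSCs and NT-ESCs, miR-103-3p lost its call between NT-iPSCs and iPSCs (-0.66) and gained it between NT-iPSCs and ESCs (0.41), and miR-103-2-5p gained it against MEFs (1.38) and lost it between MEFs and ESCs (2.29). Without the filter miR-103-3p lost its call in NT-ESCs against ESCs (0.47) and NT-iPSCs against iPSCs (-0.66), and with a minimum of 100 reads it gained it in NT-ESCs against iPSCs (-0.60). Leaving out each library gave the following ranges. The log2 ratio within the pair ran from 5.24 to 5.38 against ESCs and from 4.91 to 5.05 against MEFs. The sum ran from 0.86 to 1.12 against ESCs and from 1.84 to 2.10 against MEFs. With the smaller tail doubled, 2 libraries against 6 cannot give an exact permutation p below 0.0714. Between MEFs and ESCs, miR-103-3p ran from -0.19 to 0.079 (positive only without MEF replicate 14) and miR-103-2-5p from 1.81 to 3.27, not called without MEF replicate 13 or 15 or ESC replicate 2 or 4. miR-103-3p ran from 0.43 to 0.52 in NT-ESCs and from 0.31 to 0.50 in NT-iPSCs against ESCs (called in NT-iPSCs only without MEF replicate 14), from -0.78 to -0.42 in NT-ESCs against iPSCs (called without MEF replicate 13 or 14) and from -0.84 to -0.48 in NT-iPSCs against iPSCs. miR-103-2-5p ran from 0.95 to 1.61 against MEFs (called without ESC replicate 3). Between NT-iPSCs and NT-ESCs, miR-107-3p ran from -0.033 to 0.22, miR-103-3p from -0.16 to 0.034 and miR-103-2-5p from -0.58 to 0.32. The share called ran from 14.1% to 30.2% between NT-ESCs and iPSCs (15.2% and 14.1% without NT-ESC replicates 71 and 72) and from 1.09% to 17.8% between NT-iPSCs and NT-ESCs (7.24% without ESC replicate 3, 1.09% and 1.78% without NT-ESC replicates 71 and 72, 5.33% and 5.87% without NT-iPSC replicates 51 and 52). Depth limits the 5p arms, with at most 17 reads in a library, and miR-103-2-5p passed the filter only where it was high, so its calls support nothing.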
